A study of Rattus norvegicus with 20 samples.

Results

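The comparison described here set the livers of 5 resveratrol rats against those of 5 lean control rats, 10 of the 20 arrays of the series. The arrays were chosen by their titles, and expression was described across genes. The series held 4 groups of 5 male Zucker Diabetic Fatty (ZDF) rats, named resveratrol, rosiglitazone, obese and lean control, with 1 Affymetrix Rat Gene array for each liver. ZDF rats are a model in which obese animals, which lack a working leptin receptor, become diabetic, while their lean littermates do not. Every rat was housed singly on a reversed light cycle of 12 h and ate freely. Lean controls ate a standard chow and obese rats had a stock diet for 6 weeks. For the resveratrol rats the labels gave neither dose, duration, diet nor body type, and the study describes the treatment as one of diabetic rats, so the effects of the drug, of obesity and of diet cannot be told apart in this comparison. The age of the rats and the hour at which livers were taken were not given in the sources used here.

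Resveratrol is a plant polyphenol that is studied for its actions on sirtuins and on AMP kinase, sensors of the energy state of the cell. The liver makes fat from sugar after a meal, under insulin and the transcription factor SREBP-1c, and burns fat and releases glucose in fasting, under glucagon, cAMP and the coactivator PGC-1alpha. Pulses of growth hormone set the male pattern of liver genes in rats. Liver also turns cholesterol into bile acids, and its hepatocytes lie beside endothelial cells and resident macrophages, the Kupffer cells.

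Values are log2 expression after robust multi-array averaging (RMA), so a difference of 1 is a fold of 2. Of 14557 genes with a probe set of their own symbol, 9481 were tested, namely those that exceeded the array median of all probe sets on 5 or more arrays. All 10 hepatocyte markers tested were present in both groups, with albumin (Alb) highest at means of 11.7 in resveratrol and 11.8 in lean control livers. None was called, but 9 of the 10 differences were negative (median -0.09). The summed linear level of these markers was 12957.9 to 13189.1 in resveratrol livers and 13288.9 to 14355.1 in lean controls, without overlap. Correlations between arrays ran from 0.971 to 0.979 within the resveratrol group and from 0.964 to 0.978 within the lean controls. Each array is a separate animal by its label, so the tests measure the spread between rats. In whole liver, fewer cells of a type and less RNA per cell cannot be told apart.

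Lean control rat 3 stood apart from the other lean controls. On the principal component that carried 18.4% of the variance of the 20 arrays, the resveratrol livers lay between 2.43 and 14.4, and lean control rats 1, 2, 4 and 5 at -27.9, -10.2, -22.5 and -27.2, with rat 3 at 0.81. Its mean correlation with the resveratrol arrays was 0.977, against 0.955 to 0.965 for the other lean controls. Of the 449 genes that differed between the groups (below), rat 3 reached into the range of the resveratrol livers at 169 (37.6%), and the other lean controls at 15 to 28. No gene analysed here checks its label, so it was kept as labelled, and list counts that moved without it are given both ways. Because rat 3 was singled out on these same values, leaving it out favours further calls. Calls gained without it, 334 in all, show how far the result rests on this rat and are no added support for a difference.

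A total of 449 genes were called (adjusted p under 0.05, limma with Benjamini-Hochberg adjustment over all genes), which is 4.74% of those tested. Of these, 228 (2.4%) were higher in resveratrol livers and 221 (2.33%) were lower. Over all 9481 genes, 4752 differences were positive and 4729 negative, and the list counts below stand beside these shares. The median size of a called difference was 0.62 on the log2 scale, with a range of 0.30 to 2.90, and 78 genes differed by 2-fold or more, 40 higher and 38 lower. In 229 of the called genes the 5 resveratrol and 5 lean control livers did not overlap, 106 of them higher and 123 lower. Among all genes tested 435 did not overlap (4.59%), 204 higher (2.15%) and 231 lower (2.44%). At an unadjusted p under 0.05 there were 1938 genes.

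The count moved with single rats. Leaving out lean control rat 3 gave 765 genes, which included 431 of the 449. Leaving out lean control rats 1, 4 or 5 gave 217, 197 and 235 genes, and leaving out resveratrol rats 1, 2, 4 or 5 gave 235, 275, 290 and 293. A set of 148 genes, 67 higher and 81 lower, was called whichever of the 10 rats was left out. Of the 90 genes called among those chosen by rule for description, 47 lost the call with at least 1 rat left out, 31 of them in at least 5 of the 10 fits. With only these 10 arrays in the fit, 159 genes were called.

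**Figure D1:**
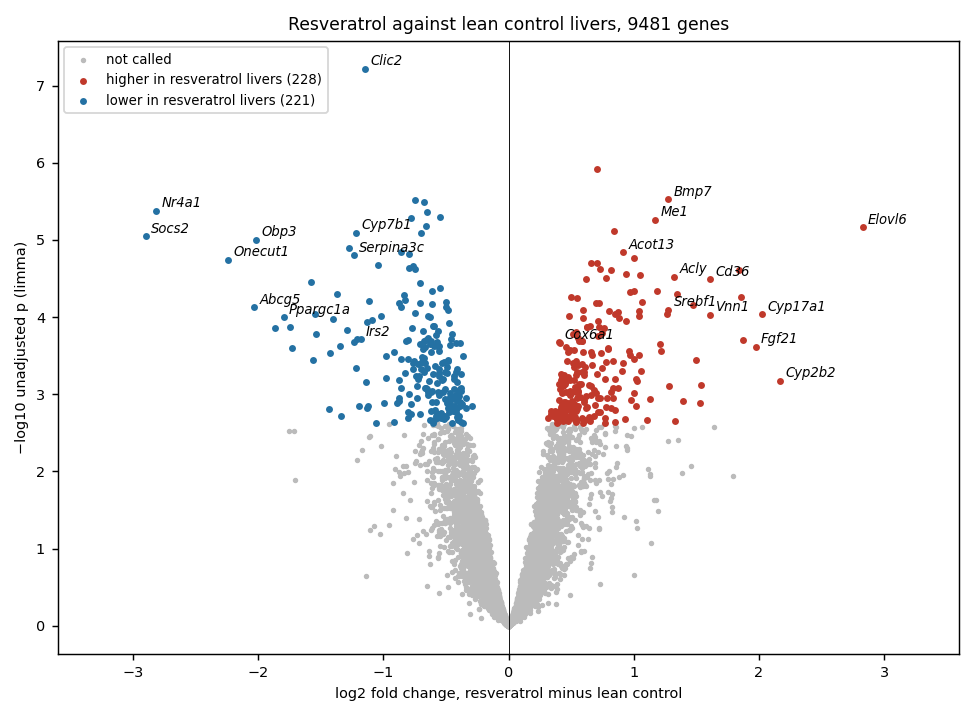
Log2 fold change (resveratrol minus lean control, horizontal axis) against -log10 of the unadjusted limma p (vertical axis) for 9481 genes. Red points are the 228 genes called higher and blue points the 221 called lower in resveratrol livers, with Socs2 at -2.90 and Elovl6 at 2.83 at the 2 ends.

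Several genes of fatty acid synthesis were higher in resveratrol livers. Of 18 tested genes of fatty acid and triglyceride synthesis, 6 were called higher and none lower, and the list median was 0.45 on the log2 scale beside 0.00 over all genes. Elovl6, which lengthens palmitate to stearate, had the largest rise of any gene called. It stood at 6.78, 6.67, 6.49, 7.35 and 7.55 in resveratrol livers, against 3.40, 3.97, 6.53, 3.45 and 3.36 in lean controls. All resveratrol livers thus lay above 4 of the lean controls, and lean control rat 3 lay within their range. The log2 fold change was 2.83 ± 0.48 (SE, adjusted p = 0.00509), and 3.42 without lean control rat 3.

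Srebf1, which encodes SREBP-1c, was at 6.13, 6.94, 7.10, 6.92 and 7.06 in resveratrol livers, against 5.58, 4.47, 6.13, 5.63 and 5.96 in lean controls. The groups did not overlap, by a narrow margin between resveratrol rat 1 and lean control rat 3, and the log2 fold change was 1.28 ± 0.26 (SE, adjusted p = 0.0113). Acly, which makes cytosolic acetyl-CoA from citrate, read 7.60, 7.88, 7.65, 8.71 and 8.64 in resveratrol livers, against 6.50, 6.60, 7.75, 6.62 and 6.41 in lean controls. Lean control rat 3 was again the only overlap, and the rise was 1.32 ± 0.25 (SE, adjusted p = 0.00785). Slc25a1, the mitochondrial citrate carrier, and Dgat2, an acyltransferase of triglyceride synthesis, were higher by 0.53 and 0.40, calls that were lost with any of 8 and 7 rats left out. The desaturase Scd averaged 9.91 ± 0.20 in resveratrol and 8.27 ± 1.35 in lean control livers (SD, n = 5 each) and was not called (adjusted p = 0.0533), though it was without lean control rat 3 (2.04, adjusted p = 0.0081). Without lean control rat 3 the list had 10 genes called higher and 1 lower, and over the 10 rats left out in turn it had 4 to 10 higher.

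Me1, the cytosolic malic enzyme that supplies NADPH for fat synthesis, was the gene that also separated resveratrol from obese livers. Its values were 5.47, 5.43, 5.91, 5.52 and 6.07 in resveratrol livers, against 4.24, 4.76, 5.02, 4.45 and 4.08 in lean controls, with no overlap. The difference from lean controls was 1.17 ± 0.19 (SE, adjusted p = 0.00509). Obese livers averaged 4.33 ± 0.32 (SD, n = 5), and resveratrol livers stood 1.35 above them (95% interval 0.95 to 1.76, adjusted p = 0.0064). Me1 was the only gene called between resveratrol and obese livers, 0.0105% of those tested, although 505 genes had an unadjusted p under 0.05.

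**Figure D2:**
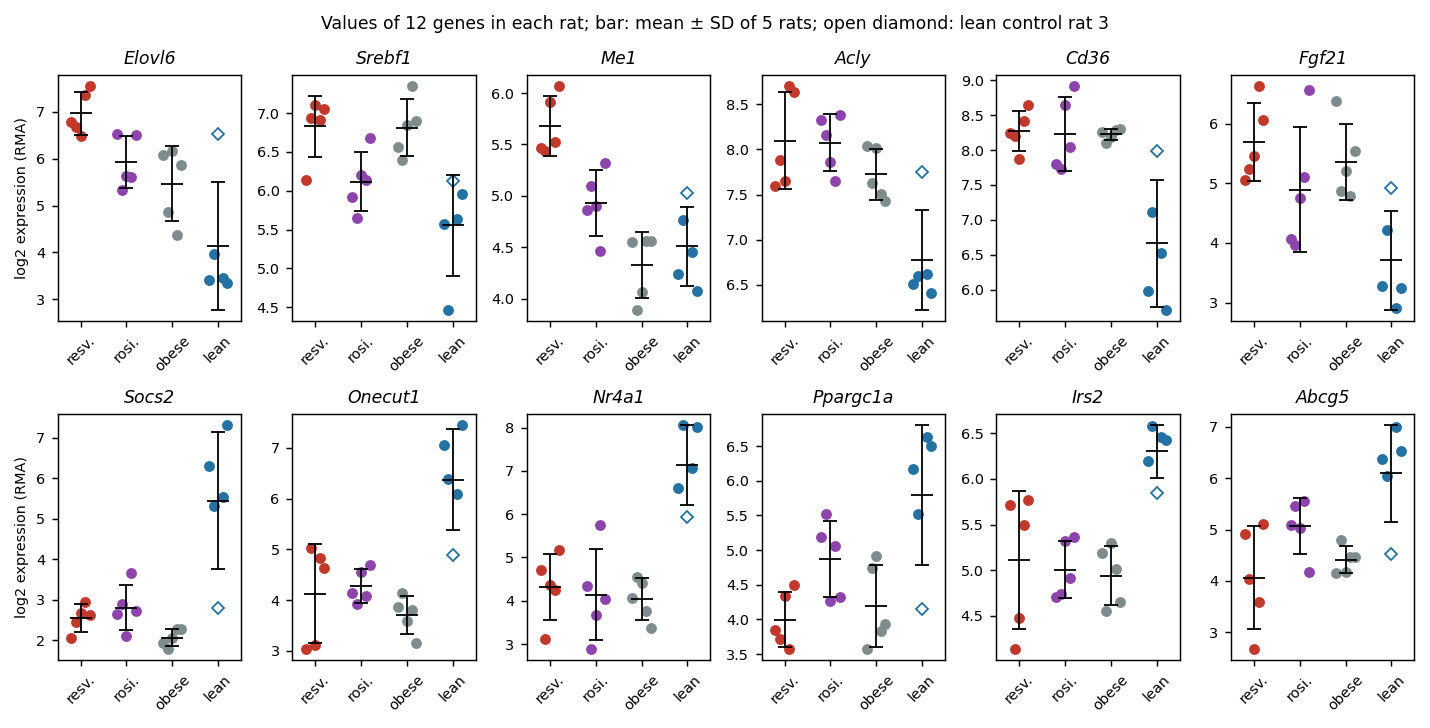
Log2 expression (vertical axes) of 12 genes in each rat, by group from left to right: resveratrol, rosiglitazone, obese and lean control. Points are rats, bars are the mean ± SD of 5 rats, and the open diamond is lean control rat 3, which lies within the resveratrol range for Elovl6, Acly, Cd36, Socs2, Onecut1, Ppargc1a and Abcg5.

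Some genes for the uptake and storage of fat rose as well. Of 18 tested, 3 were called higher and none lower, with a median of 0.29, and without lean control rat 3 there were 7. Cd36, a fatty acid transporter, measured 8.25, 8.19, 7.87, 8.42 and 8.64 in resveratrol livers, against 5.98, 7.11, 7.98, 6.52 and 5.72 in lean controls. Only lean control rat 3 overlapped, and the rise was 1.61 ± 0.31 (SE, adjusted p = 0.00791). The lipid droplet proteins Cidec and Cidea were higher by 0.78 and 1.02, and Cidea lost its call with any of 4 rats left out. The droplet coat gene Plin2 averaged 8.06 ± 0.93 in resveratrol and 6.27 ± 1.77 in lean control livers (SD, n = 5 each), and was not called (adjusted p = 0.112), though it was without lean control rat 3 (2.37, adjusted p = 0.0169).

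Genes of fat oxidation had mostly positive differences too. Of 34 tested, 31 had a positive difference, beside 4752 of 9481 over all genes, and the median was 0.40. Calls numbered 4 (11.8%, beside 4.74% over all genes), all higher (Vnn1, Crot, Acads and Hadh). Vnn1, a pantetheinase that releases cysteamine and is a target of PPARalpha, read 6.70, 5.82, 6.02, 7.12 and 6.82 in resveratrol livers, against 4.30, 5.62, 5.77, 4.58 and 4.14 in lean controls. These groups did not overlap, and the rise was 1.61 ± 0.34 (SE, adjusted p = 0.0114). Crot, a peroxisomal carnitine acyltransferase, averaged 8.79 ± 0.29 in resveratrol and 7.79 ± 0.55 in lean control livers (SD, n = 5 each). Acads, the short-chain acyl-CoA dehydrogenase, was higher by 0.55 and the dehydrogenase Hadh by 0.43. Crot lost its call with any of 6 rats left out and Hadh with any of 5. Cpt1a, the entry step of fatty acids into mitochondria, had a difference of -0.12 (adjusted p = 0.73). Leaving out lean control rat 3 brought the count to 12, and over the 10 rats left out in turn it was 2 to 12.

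Fgf21, a hormone of the liver that is raised by PPARalpha and by cell stress, had 5.05, 5.23, 5.45, 6.63 and 6.06 in resveratrol livers, against 3.28, 4.21, 4.92, 2.92 and 3.24 in lean controls. It was the largest rise among genes whose groups did not overlap, at 1.97 ± 0.45 (SE, adjusted p = 0.0163). Without lean control rat 4 it missed the threshold (adjusted p = 0.052). Acat1, an enzyme of ketone body synthesis and use, was higher by 0.61, but lost its call with any of 9 rats left out (highest adjusted p = 0.131).

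Among 35 tested genes of oxidative phosphorylation, 32 had positive differences of small size (4752 of 9481 over all genes), with a median of 0.27. Cox6a1 and Cox8a of cytochrome oxidase, Ndufv1 and Ndufs7 of complex I and Sdhc of complex II were called higher, by 0.39 to 0.55, while the ATP synthase subunit Atp5f1c (-0.86) and the assembly factor Uqcc2 (-0.78) were lower. Atp5f1c was close to the low end of the scale, at means of 1.77 in resveratrol and 2.63 in lean control livers. This list was sensitive to single rats, with 13 genes called higher without lean control rat 3 and 1 to 13 over the 10 rats, and Ndufs7 lost its call with any of 9 and Ndufv1 with any of 8. In glycolysis 3 of 9 tested genes were called higher and 1 lower. The liver pyruvate kinase Pklr averaged 7.62 ± 0.56 in resveratrol and 6.12 ± 0.99 in lean control livers (SD, n = 5 each, adjusted p = 0.02). Pdk1, which inhibits pyruvate dehydrogenase, was higher by 0.63 and Pgk1 by 0.54, and Pfkfb3, which makes an activator of phosphofructokinase, was lower (-0.65). Pfkfb3 in resveratrol livers, at 1.98 to 2.83, was near the low end of the scale. Pgk1 lost its call with any of 8 rats left out and Pfkfb3 with any of 7, so that 1 to 3 genes of the list were called higher and 0 to 1 lower.

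**Figure D3:**
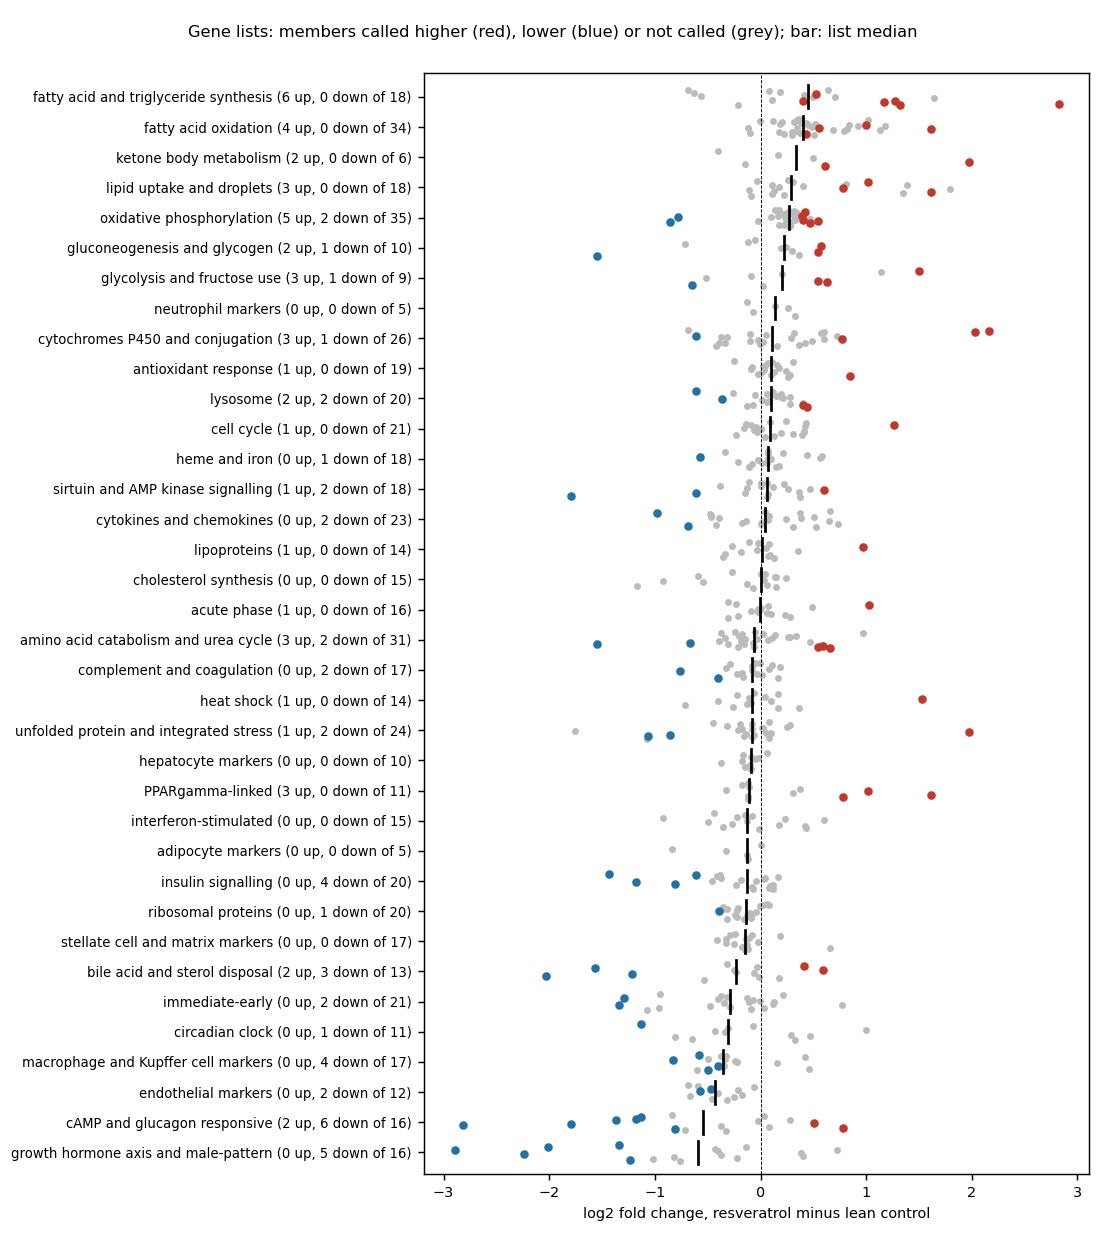
Log2 fold change (resveratrol minus lean control, horizontal axis) of each member of the lists with 5 or more genes tested, ordered by list median (black bar). Red and blue points were called higher and lower and grey points were not called, and the medians run from 0.45 for fatty acid and triglyceride synthesis to -0.60 for the growth hormone axis and male-pattern genes.

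Several genes that respond to cAMP and glucagon were lower. Of 16 tested, 6 were called lower (Nr4a1, Ppargc1a, Sik1, Irs2, Per1 and Igfbp1) and 2 higher (Gcgr, the glucagon receptor, and the phosphodiesterase Pde8b), with a median of -0.55. Gcgr lost its call with any of 8 rats left out and Pde8b with any of 7. Nr4a1, an orphan nuclear receptor that is induced within minutes by cAMP, stood at 4.71, 3.11, 4.36, 4.25 and 5.16 in resveratrol livers, against 6.60, 8.06, 5.94, 7.06 and 8.02 in lean controls. The groups did not overlap, and the difference was -2.82 ± 0.46 (SE, adjusted p = 0.00509), a 7.04-fold lower level in resveratrol livers on the linear scale. Obese livers averaged 4.04 ± 0.48 and rosiglitazone livers 4.14 ± 1.05 (SD, n = 5 each), and the interval of the difference between resveratrol and obese livers ran from -0.67 to 1.24.

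Ppargc1a, the gene of PGC-1alpha, had 3.85, 3.72, 4.33, 3.58 and 4.50 in resveratrol livers, against 6.17, 5.53, 4.15, 6.63 and 6.50 in lean controls. Only lean control rat 3 lay in the resveratrol range, and the difference was -1.80 ± 0.38 (SE, adjusted p = 0.0115) with it and -2.21 without it. Sik1, a kinase that restrains the cAMP response, was at 6.67, 6.07, 6.12, 6.73 and 7.22 in resveratrol livers, against 8.12, 7.85, 7.15, 8.16 and 8.38 in lean controls. It overlapped narrowly, through resveratrol rat 5 and lean control rat 3, and the difference was -1.37 ± 0.27 (SE, adjusted p = 0.01). Of 10 tested genes of gluconeogenesis and glycogen, the aminotransferase Got1 was called lower (-1.54) and Mdh1 and pyruvate carboxylase (Pc) higher (0.58 and 0.54). Got1 was called whichever rat was left out, while Pc lost its call with any of 9 rats and Mdh1 with any of 5. Pck1, the gluconeogenic enzyme that cAMP induces, differed by -0.11 (adjusted p = 0.54).

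The promoters of Nr4a1, Ppargc1a and Sik1 are shown because these 3 genes had the largest falls of the cAMP list, and because CREB, the factor that cAMP activates, binds the letters TGACG. The sequences are from RefSeq, rat build GRCr8, 250 bases before to 50 after the start of each gene, with TGACG or its reverse complement CGTCA in capitals. The motif was chosen after the values were seen. The regions are chr7:134259888-134260187 on the plus strand for Nr4a1, chr14:63634058-63634357 on the plus strand for Ppargc1a and chr20:9958597-9958896 on the minus strand for Sik1.
Nr4a1: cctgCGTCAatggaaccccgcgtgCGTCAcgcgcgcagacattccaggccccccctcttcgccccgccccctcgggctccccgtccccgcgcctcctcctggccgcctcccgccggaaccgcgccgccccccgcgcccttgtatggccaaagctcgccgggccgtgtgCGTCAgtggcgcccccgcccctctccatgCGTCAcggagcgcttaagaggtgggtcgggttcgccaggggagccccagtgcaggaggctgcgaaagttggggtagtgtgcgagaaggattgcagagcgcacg
Ppargc1a: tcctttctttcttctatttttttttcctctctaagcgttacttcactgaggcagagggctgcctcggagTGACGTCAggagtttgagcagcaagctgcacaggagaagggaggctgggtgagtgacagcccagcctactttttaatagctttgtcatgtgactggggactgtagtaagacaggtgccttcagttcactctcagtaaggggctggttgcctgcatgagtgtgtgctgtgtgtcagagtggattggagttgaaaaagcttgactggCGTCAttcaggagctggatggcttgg
Sik1: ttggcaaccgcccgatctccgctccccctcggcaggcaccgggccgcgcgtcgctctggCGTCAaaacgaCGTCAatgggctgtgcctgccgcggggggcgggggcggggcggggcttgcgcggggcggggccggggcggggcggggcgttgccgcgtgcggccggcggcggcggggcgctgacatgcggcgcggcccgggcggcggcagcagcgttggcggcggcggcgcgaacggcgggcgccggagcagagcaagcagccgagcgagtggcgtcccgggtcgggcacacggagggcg

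Nr4a1 held 4 copies, Ppargc1a 3, of which 2 overlap as the palindrome TGACGTCA, and Sik1 2. On either strand the motif was in 6030 of 27457 promoters of the same length (22.0%), and 5.21% held 2 or more. Of the 16 tested genes of the list 15 had a matched promoter, and 8 of them held the motif. Per1 and Igfbp1, also called lower, held 0 copies, and Irs2 had no matched promoter. The other carriers were Cebpb (3 copies) and Crtc2, Nr4a2, Creb3l3 and Ppp1r3g (1 each), and none of these was called with all arrays. Nr4a2 was called lower without lean control rat 3 (-1.02, adjusted p = 0.0365). These matches are letters in a window and do not show binding.

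Insulin signalling genes share Irs2 and Igfbp1 with the cAMP list. Of 20 tested, 4 were called lower (Igfbp2, Irs2, Igfbp1 and Foxo3) and none higher, with a median of -0.13, and 1 to 4 were called over the 10 rats left out in turn. Irs2, a docking protein of the insulin receptor, read 5.71, 4.14, 4.47, 5.49 and 5.76 in resveratrol livers, against 6.19, 6.58, 5.85, 6.45 and 6.42 in lean controls. The groups did not overlap and the difference was -1.18 ± 0.26 (SE, adjusted p = 0.0156), but it was not called when only the 10 arrays were fitted (adjusted p = 0.057). Igfbp1, a binding protein of insulin-like growth factors that insulin represses, differed by -0.81, and Igfbp2 by -1.44. Igfbp2 in resveratrol livers, at 1.85 to 2.47, was at the low end of the scale. Igfbp1 lost its call with any of 7 rats left out and Igfbp2 with any of 9.

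Targets of growth hormone and male-pattern genes had the lowest median of the lists with 5 or more genes tested, -0.60, with 5 of 16 tested genes called lower and none higher. Socs2, a feedback inhibitor that growth hormone induces through STAT5, was at 2.05, 2.44, 2.68, 2.96 and 2.62 in resveratrol livers, against 6.30, 5.30, 2.79, 5.53 and 7.31 in lean controls. In 4 lean controls it was far above every resveratrol liver, and in lean control rat 3 it lay within their range. The difference was -2.90 ± 0.50 (SE, adjusted p = 0.00535), the largest of all called genes, and -3.56 without that rat. Onecut1, a liver transcription factor also known as HNF6, had 3.04, 5.03, 3.11, 4.84 and 4.63 in resveratrol livers, against 7.06, 6.40, 4.88, 6.08 and 7.45 in lean controls. Rat 3 was again the overlap, and the difference was -2.24 ± 0.41 (SE, adjusted p = 0.00705).

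Obp3, one of the urinary globulins that male rat liver secretes, read 7.75, 7.73, 6.95, 7.28 and 6.73 in resveratrol livers, against 9.76, 9.49, 8.28, 9.72 and 9.26 in lean controls. The groups did not overlap, with a difference of -2.01 ± 0.35 (SE, adjusted p = 0.00551). It belongs to a family of close copies, so probes may be shared among them. Serpina3c and the cytochrome Cyp3a18 were lower too (-1.24 and -1.34), without overlap between groups. The male cytochrome Cyp2c11 averaged 9.19 ± 0.63 in resveratrol and 10.2 ± 0.22 in lean control livers (SD, n = 5 each) and was not called (adjusted p = 0.0718). Over the 10 rats left out in turn, 5 to 7 genes of the list were called lower and 0 to 1 higher.

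Of 13 tested genes of bile acid synthesis and sterol disposal, 3 were called lower and 2 higher, with a median of -0.23. Cyp7a1, the rate-limiting enzyme of bile acid synthesis, averaged 6.86 ± 0.64 in resveratrol and 8.43 ± 0.74 in lean control livers (SD, n = 5 each), a difference of -1.56 (adjusted p = 0.0199) that lost its call with any of 4 rats left out. Cyp7b1, of the alternative route to bile acids, had 2.40, 2.75, 2.09, 2.32 and 2.27 in resveratrol livers, against 4.23, 3.95, 3.05, 3.86 and 2.83 in lean controls. Its groups did not overlap (difference -1.22 ± 0.21, SE, adjusted p = 0.00509), though its level in resveratrol livers was at the low end of the scale. Abcg5, which with its partner pumps sterols into bile, averaged 4.06 in resveratrol and 6.10 in lean control livers, a difference of -2.03 ± 0.42 (SE, adjusted p = 0.0109), and lean control rat 3 (4.53) lay within the resveratrol range of 2.68 to 5.12. Nr1h3, the oxysterol receptor LXRalpha that drives Abcg5 and Srebf1, was higher by 0.59, and Akr1d1, which reduces bile acid precursors, by 0.41. None of 15 tested genes of cholesterol synthesis was called, though lean control rat 3 was low for 2 of them, with Idi1 at 3.83 against 5.79 to 5.92 and Sqle at 4.04 against 5.44 to 5.97 in the other lean controls. Without that rat both were called lower, Idi1 by -1.58 (adjusted p = 0.0033) and Sqle by -1.25 (adjusted p = 0.0434).

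Among 26 tested cytochromes P450 and conjugating enzymes, 3 were called higher and 1 lower, with a median of 0.11. Cyp17a1, a steroid hydroxylase, read 6.49, 6.57, 5.03, 6.03 and 7.31 in resveratrol livers, against 4.53, 3.95, 5.16, 4.47 and 3.18 in lean controls. The overlap was resveratrol rat 3 with lean control rat 3, and the rise was 2.03 ± 0.42 (SE, adjusted p = 0.0114). Cyp2b2, a target of the drug receptor CAR, measured 9.94, 8.65, 8.97, 9.07 and 9.29 in resveratrol livers, against 6.00, 7.42, 9.53, 6.46 and 5.70 in lean controls. Lean control rat 3 exceeded 4 of the resveratrol rats, and the rise of 2.16 (2.79 without that rat) lost its call without lean control rats 1, 4 or 5 or resveratrol rats 1 or 5 (highest adjusted p = 0.083). Cyp2b2 has the near-identical copy Cyp2b1, which differed by 0.49 (adjusted p = 0.69). Cyp1a1, a target of the aryl hydrocarbon receptor, was higher by 0.77 and the antioxidant enzyme Nqo1 by 0.85, both near the threshold (adjusted p = 0.05 for each) and lost with any of 8 and 9 rats left out. Cyp1a1 in lean controls, at 1.61 to 2.25, was at the low end of the scale. Without lean control rat 3 the P450 and conjugation list had 8 genes called higher. The other 18 of 19 tested antioxidant genes were not called, a share called of 5.26%, near the 4.74% over all genes. Of 18 genes of sirtuin and AMP kinase signalling, Sirt4 was higher (0.60) and Ppargc1a and Foxo3 (-0.61) lower. Sirt4 lost its call with any of 8 rats left out and Foxo3 with any of 5, and without lean control rat 3 there were 3 called higher, with Sirt5 (0.48) and Nmnat3 (0.64) added. Sirt1 was not analysed here.

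Some markers of macrophages and of endothelium were lower in resveratrol livers. Of 17 macrophage and Kupffer cell markers tested, 14 had negative differences and 4 were called, all lower (Aif1 -0.83, Clec4f -0.58, Msr1 -0.50 and C1qa -0.40), with a median of -0.36. The other 3 had positive differences and were not called. Among them was Cd14, the highest of these markers, at means of 6.90 in resveratrol and 6.44 in lean control livers. The summed linear level of the 17 markers was 663.1 to 754.1 in resveratrol and 674.5 to 992.3 in lean control livers, so the groups overlapped. All 12 endothelial markers had negative differences (4729 of 9481 over all genes), with a median of -0.43. Tek (-0.57) and Lyve1 (-0.47) were called, each lost with any of 8 rats left out. The summed level of the 12 markers was 344.7 to 390.9 in resveratrol livers and 449.6 to 522.9 in lean controls, without overlap. Lean control rat 3 was at 506.1, with the other lean controls. Every marker of both lists was above the lowest values of the scale, with Vwf the lowest endothelial marker at means of 3.19 in resveratrol and 3.25 in lean control livers, and Aif1 the lowest macrophage marker at 3.36 and 4.19. Over the 10 rats left out in turn, 1 to 5 macrophage and 0 to 2 endothelial markers were called. Clec4f, Msr1 and C1qa each lost their call with any of 7 rats left out, while Aif1 kept it throughout. Stellate cell and matrix markers had negative differences in 15 of 17, with a median of -0.14, while Dcn differed by 0.65. Their summed level was 1353.0 to 1489.8 in resveratrol and 1506.2 to 1761.9 in lean control livers. These ranges did not overlap either, as for the hepatocyte markers above. Fn1, the highest marker at means of 9.42 and 9.67, weighs most in this sum, which therefore need not describe stellate cells. These shifts stand beside the gene groups above, and their part in those results was not tested. The 3 erythroid markers had differences of 0.54 to 0.86 and were not called, but 2 were without lean control rat 3 (Hba-a1 0.83, adjusted p = 0.0204, and Hbb-b1 0.66, adjusted p = 0.0434). No marker of stellate cells, lymphocytes, neutrophils, bile duct cells, adipocytes or pancreatic acinar cells was called, of 4 to 17 tested for each. Without lean control rat 3, Reln of the stellate and matrix list (-0.40, adjusted p = 0.042) and Car3 of the adipocyte list (-1.06, adjusted p = 0.0289) were called lower. Car3 was high in whole liver, with medians of 9.30 in resveratrol and 10.2 in lean control livers. Of the same list, Adipoq (2.87 and 2.82), Retn (2.13 and 2.54) and Cfd (3.80 and 3.77) had far lower medians. The difference in Car3 therefore need not describe adipocytes, and its cell source was not tested.

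The gene with the smallest adjusted p of all was Clic2, a chloride channel family member. It had 4.61, 4.80, 4.31, 4.61 and 4.66 in resveratrol livers, against 5.92, 6.04, 5.37, 5.65 and 5.73 in lean controls. The spread within each group was small beside the difference of -1.15 ± 0.14 (SE, adjusted p = 0.000571), and the adjusted p was at most 0.0041 with a rat left out.

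**Figure D4:**
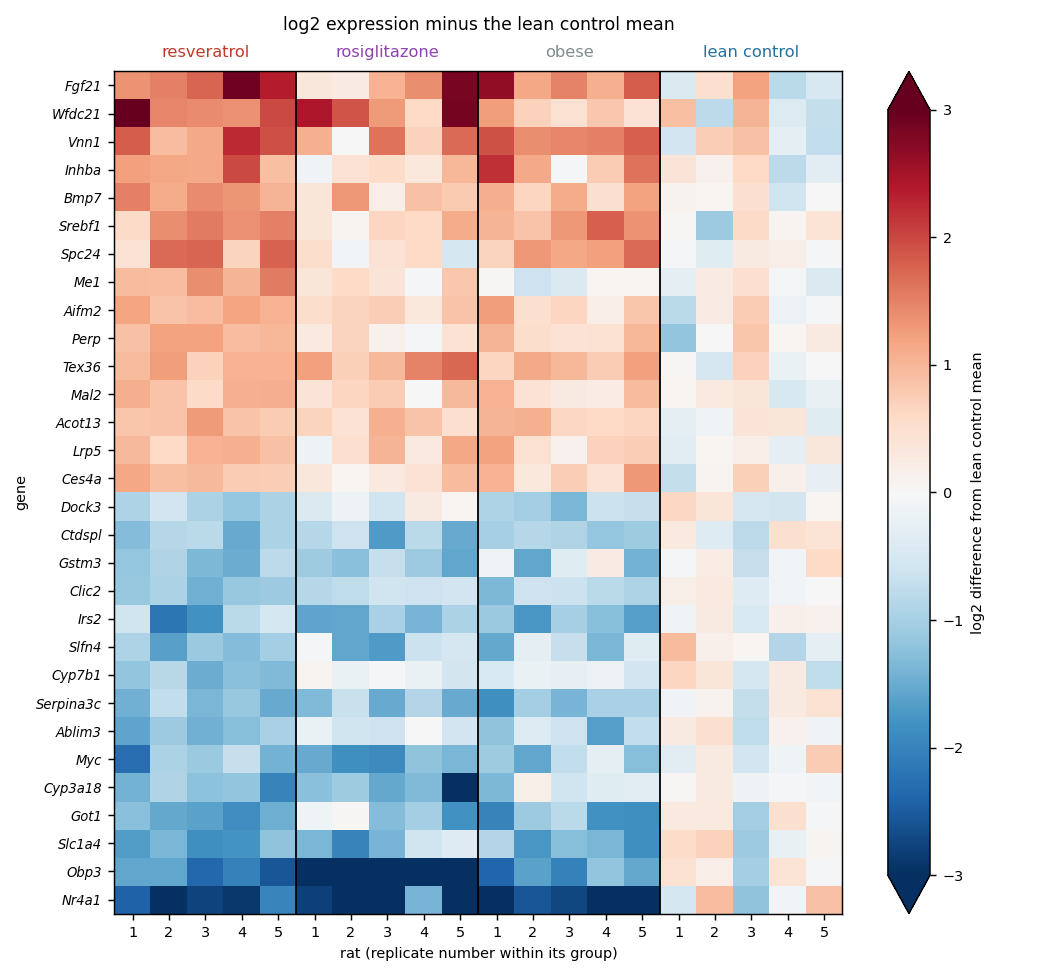
Log2 expression minus the lean control mean (colour) of the 15 genes with the largest rise and the 15 with the largest fall among called genes whose resveratrol and lean control livers did not overlap. Columns are rats by group from left to right: resveratrol, rosiglitazone, obese and lean control. Lean control rat 3 lies on the resveratrol side of the lean mean at 29 of the 30 genes.

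Other genes whose groups did not overlap were spread over different lists or belonged to none. Wfdc21, a secreted protease inhibitor family member, was higher by 1.87, and the growth factor genes Inhba and Bmp7 were both higher by 1.28. Bmp7 held on leaving out any rat (highest adjusted p = 0.015). Spc24 of the kinetochore was higher by 1.26 and Acot13, a thioesterase, by 0.92. Among the falls, the amino acid transporter Slc1a4 differed by -1.58, the transcription factor Myc by -1.29, the actin-binding Ablim3 by -1.27 and the glutathione transferase Gstm3 by -1.14. Gstm3 lost its call with any of 7 rats left out and Inhba with any of 4. Spc24 in lean controls ran from 1.98 to 2.60, and Gstm3 in resveratrol livers from 1.30 to 1.99. Slc1a4 in resveratrol livers ran from 2.27 to 2.90. These levels lie at the low end of the scale, where array medians were 2.36 to 2.53. Of 21 immediate-early genes tested Myc and Gadd45b (-1.34) were called lower, while Fos differed by -0.11 (adjusted p = 0.90). Gadd45b lost its call with any of 7 rats left out (highest adjusted p = 0.116), and without lean control rat 3 Klf6 was also called lower and Klf10 higher. Acute phase and interferon genes gave 1 call (Orm1, 1.03) among 31 tested, which was lost with any of 5 rats left out. Over all genes 4.74% were called.

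Clock genes varied within both groups. Dbp, an output gene of the clock, had 6.72, 8.68, 8.60, 5.67 and 7.86 in resveratrol livers, against 8.95, 6.57, 7.72, 8.66 and 8.88 in lean controls. Bmal1, which peaks opposite to Dbp, had 5.83, 3.47, 3.80, 6.33 and 3.99 in resveratrol livers, against 2.43, 5.91, 4.75, 2.54 and 2.79 in lean controls. Both groups thus held high and low values, and neither gene was called. The groups were not balanced, as lean control rats 1, 4 and 5 lay below every resveratrol rat for Bmal1. On a score of clock genes, in which Bmal1 counts up and Dbp down, these rats stood at -1.49, -2.19 and -1.98. Resveratrol rats ran from -0.98 to 3.12, and lean control rats 2 and 3 (0.97 and 0.04) lay within that range. Per1, which responds to the clock and to cAMP, was lower (-1.13). With the clock score as a covariate, 311 genes were called, of which 264 were among the 449. Of the 90 called genes chosen by rule, 64 kept their call, such as Elovl6, Me1, Nr4a1, Socs2 and Ppargc1a, with log2 fold changes of 2.55, 1.11, -2.90, -2.67 and -1.41. The other 26 lost it, among them Acat1 (adjusted p = 0.114), Pc (0.109), Mdh1 (0.068), Cyp2b2 (0.067), Cidea (0.065) and Hadh (0.062).

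The other groups show where resveratrol livers lay beyond this comparison. These comparisons share the lean control arrays, so their values are given side by side. Against lean controls, 172 genes were called in obese livers (1.81%) and 229 in rosiglitazone livers (2.42%). Several list medians moved the same way in those livers. For growth hormone and male-pattern genes the medians were -0.60 in resveratrol, -0.60 in obese and -0.88 in rosiglitazone livers. In the same order the cAMP list had -0.55, -0.55 and -0.57, and endothelial markers -0.43, -0.47 and -0.36. Fatty acid and triglyceride synthesis had 0.45, 0.21 and 0.24, while macrophage markers had -0.36, -0.49 and 0.16. Elovl6 averaged 6.97 ± 0.46 in resveratrol, 5.92 ± 0.56 in rosiglitazone, 5.46 ± 0.80 in obese and 4.14 ± 1.36 in lean control livers (SD, n = 5 each). The difference of resveratrol from obese livers was 1.51 (95% interval 0.51 to 2.50) and was not called (adjusted p = 0.74). For Srebf1 this interval was -0.53 to 0.56, for Cd36 -0.59 to 0.69 and for Socs2 -0.56 to 1.52. Between resveratrol and rosiglitazone livers, 84 genes were called (0.886%), 35 higher (0.369%) and 49 lower (0.517%). Obp3 was 1.99 higher in resveratrol than in rosiglitazone livers (adjusted p = 0.00565) and Igfbp2 was lower (-3.42, adjusted p = 8.87e-05).

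**Figure D5:**
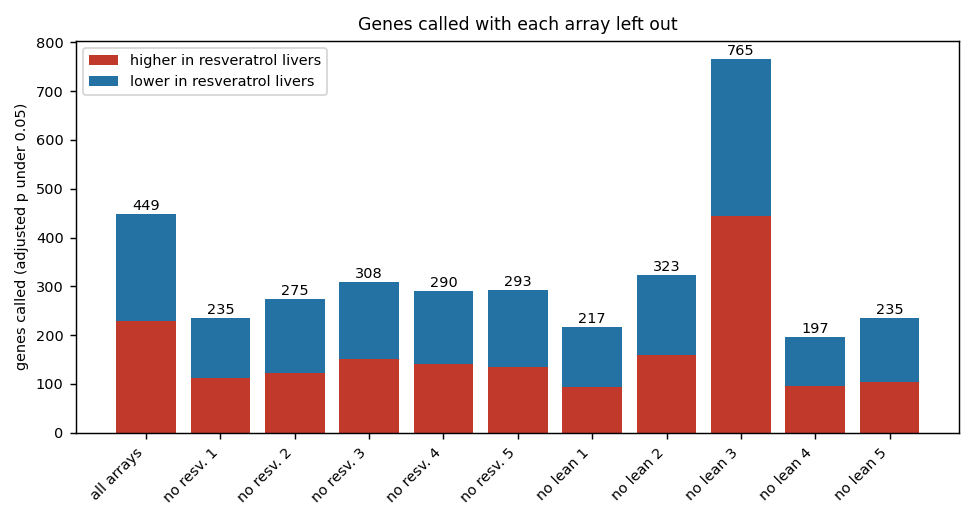
Number of genes called (vertical axis, adjusted p under 0.05) with all arrays and with each resveratrol or lean control array left out (horizontal axis). Red is the part called higher and blue the part called lower in resveratrol livers, and the total runs from 197 without lean control rat 4 to 765 without lean control rat 3, against 449 with all arrays.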

How the data were processed

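RNA was isolated from frozen livers with TRIzol, RNeasy columns and DNase, and 100 ng of each went onto an Affymetrix Rat Gene array. The log2 values deposited for 36685 probe sets were made by the authors with RMA, that is, background correction, quantile normalization and a summary over the probes of a set. Neither the version of RMA nor a genome build was given in the sources used. RMA compresses differences at the low end of the scale, and no detection call was applied. Medians of the arrays lay between 2.36 and 2.53, and the 5 rats per group limit the precision.

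The platform annotation gave 1 gene symbol to 14824 probe sets and several to 829, and 21032 stayed unnamed here, so that only those with 1 symbol were used. Where probe sets shared a gene (234 genes), that with the highest mean was taken. RefSeq (GRCr8) held the gene identifiers of 14670 probe sets and served for names. Lepr, Pparg and Sirt1 were not analysed here.

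Group means were fitted by limma 3.58.1 (R 4.3.3) on the 20 arrays together, with 16 residual and 5.40 prior degrees of freedom, and tested two-sided with Benjamini-Hochberg adjustment over all genes. The filter kept genes above percentile 50 of their array in at least 5 arrays. The script was tested on simulated data. Plots were made with matplotlib 3.10.9.

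Genes were named by rule: the 15 highest and 15 lowest fold changes among called genes with no overlap between the groups, up to 4 members of each of 40 gene lists by smallest p, and a fixed set (Me1, Socs2, Nr4a1, Onecut1, Cd36, Srebf1, Irs2, Ppargc1a, Dbp, Bmal1, Igfbp2 and Fabp4). Cyp7a1, Slc25a1, Dgat2, Scd, Plin2, Cpt1a, Pck1, Cyp2c11, Cyp2b1, Gcgr, Pde8b, Cox8a, Ndufs7, Uqcc2, Fos, Sirt5, Nmnat3, Klf6, Klf10, Cd14 and Vwf are list members named after their values were seen. The comparison, the lists and the alternatives were chosen with earlier results of these data known. Alternatives covered the filter, scaling, variance model, array weights, probe set rule, replicate block, a clock covariate, thresholds and arrays left out.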

Additional observations from a re-analysis of the deposited data

Results flagged for a closer look

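Single rats lay far from the other 4 of their group at 23 of 342 combinations of a named gene and a group, by Dixon's test, where chance alone gives about 1 in 20. The count is near that rate, so any single flag listed here may be chance. Lean control rat 3 was far from its group in lipid and sterol genes, high for Elovl6 (6.53) and Acly (7.75) and low for the sterol synthesis genes Idi1 (3.83) and Sqle (4.04). Lean control rat 1 was low for Cox6a1 (8.22), the lysosomal pump subunit Atp6v0c (6.61), the ferritin gene Ftl1 (9.16), the ribosomal gene Rpl7 (6.16) and Mmp8 (1.84). Lean control rat 5 was low for Agxt (6.47) and Lyve1 (6.43).

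Among resveratrol livers, rat 3 was low for the lipase inhibitor G0s2 (6.52) and for Hspa4l (3.74) and high for Acot13 (6.33). Rat 1 was low for Srebf1 (6.13) and Bhlhe40 (7.26) and high for Sod2 (7.77). Rat 2 was low for Bach1 (5.79) and high for Mmp2 (4.50). Rat 4 was low for Lyve1 (6.14) and high for Hspb1 (4.02), and rat 5 was high for Pdk1 (7.09) and Ppp1r3g (4.98).

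The difference from lean controls itself differed between resveratrol and another group for 13 of 171 named genes, by the contrast of those groups (limma, adjusted p under 0.05). Over all 9481 genes, 1 was called against obese livers (0.0105%) and 84 against rosiglitazone livers (0.886%). The named genes were largely chosen by their difference from lean controls, which uses the same resveratrol arrays. Me1 was 1.17 higher in resveratrol livers and differed by -0.18 in obese livers. The other 12 differed between resveratrol and rosiglitazone. The macrophage genes Aif1, C1qa, Ccl6 and Clec4f differed from lean controls by -0.83, -0.40, -0.69 and -0.58 in resveratrol livers and by 0.14, 0.04, 0.22 and 0.15 in rosiglitazone livers. The lysosomal protease Ctsl differed by -0.61 in resveratrol and 0.13 in rosiglitazone livers. Igfbp2 differed by -1.44 in resveratrol and 1.98 in rosiglitazone livers, Cyp7b1 by -1.22 and -0.18, and the squalene epoxidase Sqle by -0.92 and 0.79. Fabp4, a PPARgamma target, differed by -0.11 in resveratrol and 1.05 in rosiglitazone livers. Obp3 and the carboxylesterase Ces1f were lower by more under rosiglitazone (-4.00 and -1.93) than under resveratrol (-2.01 and -0.61). The apolipoprotein Apoa4 was 0.97 higher in resveratrol livers and differed by 0.03 in rosiglitazone livers.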

How the results depend on the processing

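Against 449 genes called (228 higher, 221 lower), an adjusted p under 0.01 gave 46 (21 and 25), a fold of at least 1.5 gave 255 (127 and 128), and a fit of the 10 arrays alone gave 159 (73 and 86), with 147 of the 449 among them. With 1 rat left out the count ran from 197 to 765 (93 to 445 higher, 102 to 320 lower), the highest without lean control rat 3. The count was 321 with no filter, 570 with percentile 75, 371 with centred arrays, 517 with a variance trend and 469 with array weights. Repeated quantile normalization gave 509, of which 63.1% were higher, against 50.8%, and moved the median of all genes by less than 0.01. Same-numbered resveratrol and lean control arrays showed no positive correlation of their deviations from the group means (-0.21 to -0.00088). The labels name no pairing, and what the numbers stand for cannot be told from these values. A replicate block gave 326 genes, and 21 of 90 named called genes lost their call. None of the 90 changed direction in any setting. Uncalled genes that did were Adipoq (0.012 without lean control rats 1 and 3, -0.21 to 0.077 with 1 rat left out), Cfd (-0.24 to 0.028), Ctrb1 (-0.11 to 0.035, 0.0053 with repeated quantile normalization, 0.043 without lean control rats 1 and 3), and with the clock score Dbp (0.32) and Bmal1 (-0.21). The cause was not tested. Array signal near the low end of the scale limits 29 called genes that had a group mean below the highest array median of 2.53. The list counts with rats left out were added after the data were seen. Counts against obese livers (1 gene) and rosiglitazone livers (59 to 104) kept within 1.5 times their value under the filter, scaling, model and block alternatives.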
